A study of Rattus norvegicus with 66 samples.

Results

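This account covers the female pups of dams that received the high dose of chlorpyrifos, CPF3, and the control females of the same study. RNA of the dorsal hippocampus was sequenced at postnatal day 6 (PND 6) in 64 Long Evans rats, either exposed to endocrine disrupters through their dams or controls. The 4 CPF3 females (pups 35-3x, 38-5x, 43-3x and 45-6x) were chosen by their group label and by a pup name ending in x, and all 10 female controls were taken by the same ending, so that 14 of the 64 pups entered the comparison. CPF3 dams were injected subcutaneously with 3 mg/kg body weight of chlorpyrifos per day during pregnancy and lactation. The controls comprised 5 pups of dams on control chow (CONF) and 5 pups of dams given control injections (CONSC). No group carried a mutation or transgene. The 14 pups came from different litters, 1 female per litter. Both sides of the dorsal hippocampus were pooled for each pup, and the piece included a little laterally adjacent cortex.

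Chlorpyrifos is an organophosphate insecticide. Its oxygen analogue, formed by cytochrome P450 enzymes, inhibits acetylcholinesterase, the enzyme that ends cholinergic transmission. In the rat hippocampus of the first postnatal week, granule cells are still being born in the dentate gyrus, interneurons are settling, synapses are forming and myelination has barely begun. The question of this comparison was which genes, among all those expressed, differed between females exposed to the high dose and controls.

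Total counts ranged from 15405133 to 47849893 in the control pups, and the CPF3 pups had 12679856 (35-3x), 14970133 (38-5x), 22444047 (43-3x) and 86206550 (45-6x). CPF3 pups thus included both the shallowest and the deepest library of the 14. The Y-linked genes Kdm5d and Eif2s3y had 0 counts in all 14 pups, which goes with the female labels. Of 13516 genes compared, 602 lay more than 1 log2 unit from the control mean in control pup CONSC 9-1x, against 12 to 68 in the other controls. In CPF3 the number was 371 in 43-3x, 192 in 38-5x, 78 in 45-6x and 16 in 35-3x. Dissection times of day were 10.45, 11.00, 10.20 and 11.00 h in the order of the CPF3 pups and 10.30 to 12.27 h in controls.

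The piece held varying amounts of RNA typical of neighbouring regions. Levels are given in CPM (counts per 1000000 counts of the library), normalised for single genes but not for sums over a list. The summed level of 12 striatal genes was 497, 1403, 818 and 295 CPM in CPF3 pups 35-3x, 38-5x, 43-3x and 45-6x. In controls it was 380 to 1994 CPM, of which the highest was CONSC 9-1x. Thalamic genes summed to 1124, 314, 1168 and 1243 CPM in CPF3 in the same order and to 681 to 1396 CPM in controls. Choroid plexus genes summed to 2249, 4643, 3566 and 917 CPM in CPF3 and to 1702 to 4786 CPM in controls. Pup 38-5x was therefore high in striatal and low in thalamic genes, and 45-6x was low in striatal and choroid plexus genes. Genes that mark the hippocampus summed to 828, 1069, 815 and 675 CPM in CPF3 and to 631 to 836 CPM in controls. Prox1, the marker of dentate granule cells, had 32.0 CPM in 38-5x and 74.4 to 120 CPM in controls. Neurod6, expressed by pyramidal neurons, had 11.8 CPM in CONSC 9-1x, 89.0 to 163 CPM in the other controls and 82.9 to 146 CPM in CPF3. In bulk tissue, fewer cells of a type and less RNA per cell cannot be told apart.

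Across the genome no gene differed between CPF3 females and controls after adjustment. Of 16992 genes tested with edgeR's quasi-likelihood test, 0 (0%) had a Benjamini-Hochberg adjusted p under 0.05, and the lowest adjusted p was 0.385. At an unadjusted p under 0.05 there were 1493 genes, 848 higher (4.99%) and 645 lower (3.8%) in CPF3. These shares are the background against which the counts of the gene groups below are to be read. DESeq2 gave 3 genes at an adjusted p under 0.05, and limma-voom with quality weights gave 0. The differences were small: the median absolute log2 fold change of the 1493 genes was 0.26, and 42 of them exceeded 1. Over all genes tested the median log2 fold change was -0.01 and the median SE 0.12. The genes named from here on are therefore described by their values, and an unadjusted p by itself is no evidence of a change among so many tests.

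**Figure D1:**
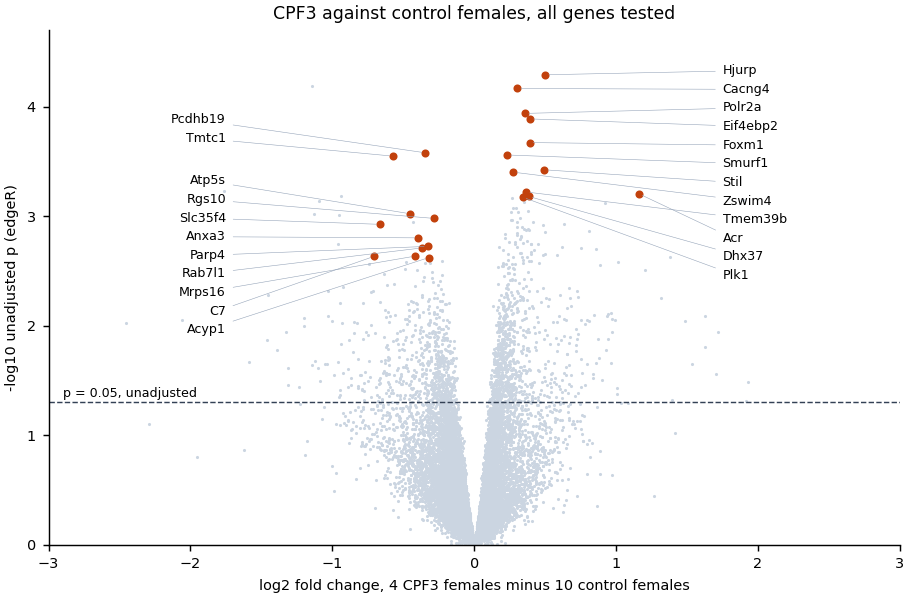
Log2 fold change of 4 CPF3 females against 10 control females (x axis) and -log10 of the unadjusted p from edgeR (y axis) for the 16992 genes tested, each a point. Genes with the smallest p in each direction are labelled, and a dashed line marks the unadjusted threshold of 0.05. The labelled genes lie between log2 fold changes of -0.71 and 1.16, and none has an adjusted p under 0.05.

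The count of genes at the unadjusted threshold depended on 1 pup. Without 43-3x it was 571 (283 higher and 288 lower), of which 378 belonged to the 1493 (199 higher and 179 lower). Of 65 members of the gene lists below that passed the unadjusted threshold, 18 did so without 43-3x. Leaving out 45-6x, the deepest library, raised the count to 2328 and left 1 gene, Hjurp, at an adjusted p under 0.05. Taking only CONF controls gave 1005 genes and only CONSC controls 1622. Some control titles join group and pup by the character _, as those of the CPF3 pups do. With these controls alone, 2332 genes passed at an unadjusted p under 0.05 and 110 after adjustment. With only the controls whose titles lack the character, the numbers were 1103 and 0. The labels do not say what the 2 forms of title mean.

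**Figure D2:**
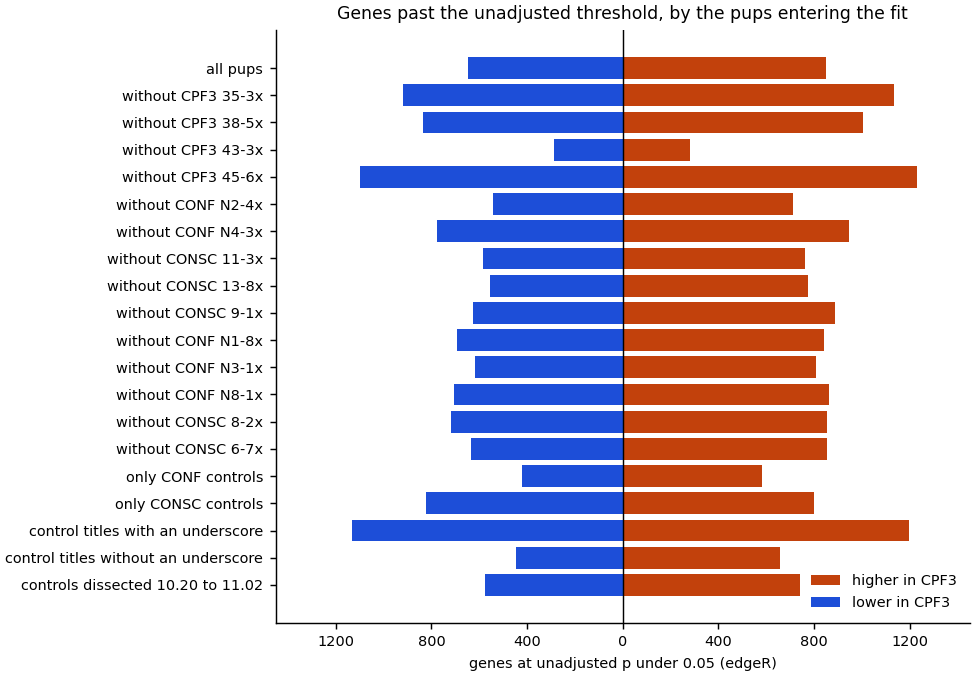
Number of genes at an unadjusted p under 0.05 in edgeR (x axis) that were higher (orange, right) or lower (blue, left) in CPF3 females, for all pups and for fits with 1 pup left out or with only some of the controls (rows). The bars are shortest without CPF3 43-3x and longest without CPF3 45-6x and with the controls whose titles hold the character _.

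The genes with the smallest p are described singly, since no enrichment was tested. Hjurp, the chaperone that loads the centromeric histone, had 12.5, 17.5, 16.9 and 11.0 CPM in CPF3 pups 35-3x, 38-5x, 43-3x and 45-6x, against 8.37 to 11.1 CPM in controls (median 10.2). The CPF3 pups other than 45-6x lay above every control, and 45-6x lay within the control range. Its log2 fold change was 0.50 (SE 0.10, unadjusted p = 5.09e-05, adjusted p = 0.385). Foxm1, a transcription factor that drives expression of mitotic genes, had 21.7, 28.6, 35.6 and 23.4 CPM in CPF3 against 18.2 to 22.9 CPM in controls, a log2 fold change of 0.39 (SE 0.09). Stil, needed to build centrioles, was higher by 0.49 (SE 0.12) on the log2 scale, with 2 CPF3 pups above all controls. Plk1, a mitotic kinase, had 13.0, 15.8, 15.9 and 11.3 CPM against 9.49 to 12.1 CPM, a log2 fold change of 0.34 (SE 0.09, unadjusted p = 6.69e-04). In Hjurp, Foxm1, Stil and Plk1 the values of 38-5x and 43-3x were the highest. Without both of these pups and CONSC 9-1x, the log2 fold changes were 0.19 (unadjusted p = 0.0800) for Hjurp, 0.10 (unadjusted p = 0.212) for Foxm1, 0.08 (unadjusted p = 0.495) for Stil and 0.12 (unadjusted p = 0.224) for Plk1. This fit was chosen after seeing the data and kept only 35-3x and 45-6x of CPF3. Leaving out the highest CPF3 pups lowers a fold change by itself, so that the fit is no independent check, here or where it is given below.

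The list of 18 genes of dividing cells had 4 members higher at the unadjusted threshold (Plk1, Aurka, Ccna2 and Ube2c) and 0 lower, with 16 of 18 fold changes above 0 and a median of 0.14. Aurka, a kinase of the spindle poles, had 10.9, 12.2, 12.4 and 9.72 CPM in CPF3 against 6.57 to 10.6 CPM in controls (log2 fold change 0.32, SE 0.10). The 12 genes of DNA replication had 0 members past the threshold in either direction and a median of -0.01, and the difference between these lists was not tested. The level of the whole cell cycle list, the median over its 30 members of log2 CPM minus the control mean, was 0.11, 0.41, 0.01 and -0.25 in the CPF3 pups, so that it was highest in 38-5x and lowest in 45-6x. The striatal list had its highest and lowest levels in the same pups (-0.16, 1.32, 0.45 and -0.84), and its part in the result was not tested. Without 38-5x, 2 members of the cell cycle list were higher, 1 was lower and the median turned to -0.07. Without 45-6x, 13 of its members were higher.

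Cacng4, an auxiliary subunit that modulates AMPA-type glutamate receptors, had 109, 116, 125 and 104.4 CPM in CPF3 and 81.5 to 104.4 CPM in controls. All 4 CPF3 pups lay above all controls, 45-6x by less than 0.1 CPM, and the log2 fold change was 0.30 (SE 0.06, unadjusted p = 6.79e-05). Polr2a, the largest subunit of RNA polymerase II, had 127, 147, 163 and 165 CPM against 97.8 to 132 CPM in controls (log2 fold change 0.36, SE 0.08). Eif4ebp2, a repressor of cap-dependent translation that is abundant in brain, had 52, 63.5, 62.1 and 58.5 CPM against 36.5 to 55.1 CPM in controls (0.39, SE 0.09). For both genes, pup 35-3x fell within the control range and the other CPF3 pups did not. With the controls whose titles hold the character _, Polr2a stood at 0.48 and Eif4ebp2 at 0.54. With those that lack it they stood at 0.23 and 0.24. The ubiquitin ligase Smurf1 was higher by 0.23, Zswim4 by 0.28, Tmem39b by 0.37 and the RNA helicase gene Dhx37 by 0.38 on the log2 scale. Acr, which encodes the sperm protease acrosin, had the largest log2 fold change of these genes, 1.16 (SE 0.30), from 2.66, 5.29, 17.2 and 4.42 CPM in CPF3 against 2.26 to 4.31 CPM in controls. Its value was set by 43-3x, since without that pup the log2 fold change was 0.33 (unadjusted p = 0.165).

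Among the genes that were lower, Pcdhb19, a clustered protocadherin of neuronal cell adhesion, had the most even values. It had 10.7, 10.3, 10.3 and 10.2 CPM in CPF3 and 10.8 to 15.1 CPM in controls (median 13.4), a log2 fold change of -0.34 (SE 0.08, unadjusted p = 2.63e-04). The groups did not overlap, although the lowest control differed from the highest CPF3 pup by little. Reads of the clustered protocadherins can match several members, so that this value is uncertain. Tmtc1, a mannosyltransferase of cadherins, had 34.6, 33.5, 28.1 and 29.9 CPM in CPF3 against 33.5 to 63.0 CPM in controls (-0.57, SE 0.14). Rgs10, a regulator of G protein signalling that is abundant in microglia, had 45.0, 50.1, 45.7 and 48.9 CPM against 49.1 to 65.2 CPM (-0.28, SE 0.08). C7, a component of complement, was lower by 0.71 on the log2 scale, at only 0.827 to 1.44 CPM in CPF3 against 1.49 to 2.46 CPM in controls. Parp4, Anxa3, Rab7l1, Acyp1, Slc35f4 and the genes Atp5s and Mrps16 of mitochondrial proteins had log2 fold changes between -0.66 and -0.32. Of the 24 genes, 12 in each direction, 23 had an unadjusted p under 0.05 without 43-3x, the exception being Acr. All 24 were picked by their p in a fit that shares the other pups, so that this is no independent check. The log2 fold change of 6 of the 24 was then smaller by over 1.5 times, among them Tmem39b (0.19), Dhx37 (0.20), Foxm1 (0.23) and Stil (0.31). Without 38-5x and CONSC 9-1x as well, 13 of the 24 had an unadjusted p under 0.05.

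**Figure D3:**
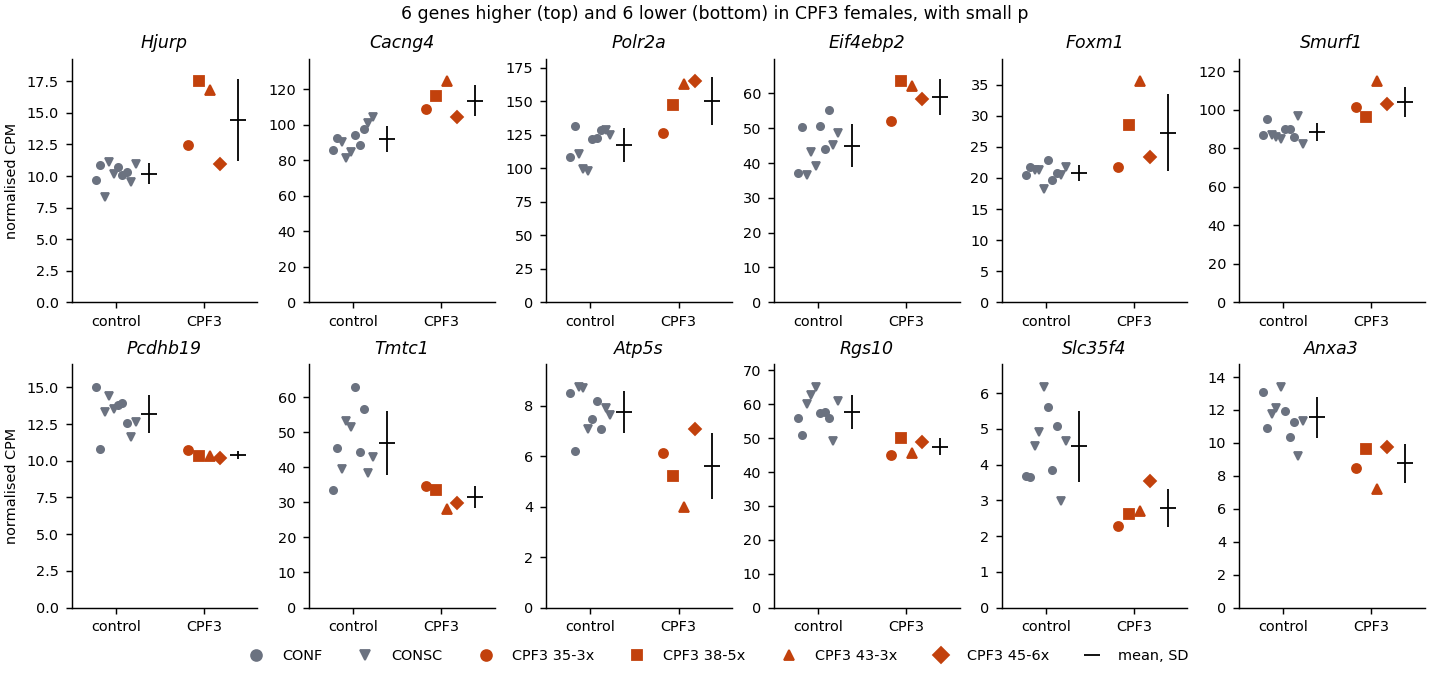
Normalised CPM (y axis, from 0) of 6 genes with small p that were higher (top) and 6 that were lower (bottom) in CPF3 females, with 1 point per pup and the mean and SD of each group beside them. Grey circles are CONF and grey triangles CONSC pups, and each CPF3 pup has its own orange symbol. Cacng4 and Pcdhb19 show no overlap between the groups, whereas for Hjurp the value of 45-6x lies within the control range.

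In 20 genes (0.118%) every CPF3 pup lay above every control, and in 10 (0.0589%) every CPF3 pup lay below. With so few pups and so many genes, some genes part in this way by chance alone. A lack of overlap is therefore by itself no evidence of a change. Those named here beyond Cacng4, Tmem39b, Pcdhb19, C7 and Cldn5 were chosen after their values were seen. They included Cdh2, the adhesion molecule N-cadherin, with 247, 252, 280 and 255 CPM in CPF3 against at most 246 CPM in controls. Socs2, a suppressor of growth hormone signalling, had 11.4, 12.1, 10.7 and 11.6 CPM against at most 10.6 CPM. Lower in every CPF3 pup was Sod2, the mitochondrial superoxide dismutase, with 52.3, 45.4, 53.1 and 53.2 CPM against 53.5 to 59.1 CPM. In Cdh2, Socs2 and Sod2 the gap between the groups was smaller than the range among the CPF3 pups.

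The list of the cholinergic system, which holds the direct target of chlorpyrifos, gave no gene past the threshold. None of 26 entries tested passed the unadjusted threshold in either direction, and the median log2 fold change was -0.03. At the background shares of 4.99% and 3.8% few calls would be found among 26 entries in any case, and the absence of calls does not show that the levels were alike. Ache, which encodes acetylcholinesterase, had 83.3, 48.8, 78.8 and 120 CPM in CPF3 and 63.2 to 110 CPM in controls (median 80.6). Pup 38-5x lay below and 45-6x above all controls. The log2 fold change was -0.04 (SE 0.18), which is 97.0% of the control level with a 95% interval from 75.5% to 125%. Bche, which encodes butyrylcholinesterase, had 7.84, 5.69, 9.83 and 8.06 CPM against 6.43 to 9.50 CPM, a log2 fold change of -0.02 (SE 0.13). Among the 4 CPF3 pups, Ache was lowest in the pup with the lowest thalamic sum, 38-5x, and highest in the pup with the highest, 45-6x, whereas over all 14 pups the highest thalamic sum was that of control CONF N2-4x. The part of regional makeup in the result was not tested. These are transcript levels, and enzyme activity was not analysed here.

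Among cholinergic receptors, 8 of 9 listed nicotinic subunits had fold changes above 0 (median 0.15) and 0 of 5 muscarinic receptors (median -0.22). Chrne, a nicotinic subunit gene outside the list, was higher by 0.67 on the log2 scale (unadjusted p = 0.00454 in edgeR). Without 43-3x it stood at 0.48 (unadjusted p = 0.0479 in edgeR). Chrna7, the subunit of the homomeric nicotinic receptor, had 16.8, 11.0, 18.0 and 14.9 CPM in CPF3 and 7.29 to 17.2 CPM in controls (0.20, SE 0.20). Chrm1, the main muscarinic receptor of pyramidal neurons, had 28.7, 34.1, 20.4 and 35.0 CPM against 22.3 to 45.4 CPM (-0.23, SE 0.16). Chrna7 and Chrm1 overlapped widely between the groups. The genes of acetylcholine synthesis, packaging and uptake had a median of -0.20 with 0 of 4 entries past the threshold, and Chat entries stood at or under 1.47 CPM in CPF3. Of 15 genes that encode other organophosphate targets or metabolising enzymes, 1 was lower, Cyp2d4, a brain cytochrome P450, with 4.55, 4.97, 4.41 and 5.80 CPM against 5.10 to 8.51 CPM (log2 fold change -0.34, SE 0.16, unadjusted p = 0.0425). With 1 pup left out, Cyp2d4 passed in 6 of 14 fits, and 0 to 3 of these genes were lower. The neuropathy target esterase gene Pnpla6 and the monoacylglycerol lipase gene Mgll had log2 fold changes of -0.11 and -0.09. None of the 10 endocannabinoid genes tested passed.

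The Sox and Pou families of transcription factors, some of which the authors studied as a network, had 4 of 20 members tested higher and 0 lower at the unadjusted threshold, and 2 to 4 higher with 1 pup left out. Fold changes were above 0 in 18 of 20, with a median of 0.13. This list was chosen with earlier results of these data known, so that it is not independent evidence of a direction. Sox4, which acts in newborn neurons, had 265, 294, 291 and 205 CPM in CPF3 and 176 to 226 CPM in controls (0.37, SE 0.10, unadjusted p = 0.00133). The CPF3 pups other than 45-6x lay above all controls, and 45-6x near the control median of 208 CPM. Without 43-3x, 38-5x and CONSC 9-1x, Sox4 stood at 0.21 (unadjusted p = 0.123 in edgeR). Sox11, its close relative, had 35.3, 29.0, 19.7 and 14.7 CPM against 11.9 to 25.7 CPM (0.41, SE 0.19, unadjusted p = 0.0453). Leaving out 1 pup in turn gave Sox11 log2 fold changes from 0.18 (unadjusted p = 0.374, without 35-3x) to 0.60, past the threshold in 6 of 14 fits. Sox12 had 43.5, 30.3, 27.7 and 31.4 CPM against 19.7 to 36.7 CPM (0.32, SE 0.15). Pou2f1, the ubiquitous octamer-binding factor, had 8.39, 11.7, 25.4 and 7.98 CPM against 5.19 to 11.8 CPM. Only 43-3x stood above the controls, and the log2 fold change of 0.72 (unadjusted p = 0.0107) became 0.19 (unadjusted p = 0.434) without it and -0.05 (unadjusted p = 0.841) without it, 38-5x and CONSC 9-1x.

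The other genes of that network follow. The receptor gene Notch2 had 20.1, 33.8, 38.8 and 16.5 CPM in CPF3 against 12.5 to 27.4 CPM in controls (0.46, SE 0.19, unadjusted p = 0.0261), 0.23 (unadjusted p = 0.265) without 43-3x and -0.18 (unadjusted p = 0.377) without 43-3x, 38-5x and CONSC 9-1x. Gli3, a transcription factor of hedgehog signalling, had a log2 fold change of 0.48 (SE 0.27), Sox6 of 0.08 (SE 0.19), Pou2f2 of 0.18 (SE 0.16) and Pou3f2 of 0.04 (SE 0.26). The neuregulin gene Nrg1 had 0.15 (SE 0.13) and its receptor Erbb4 0.11 (SE 0.27). Pvalb, the calcium-binding protein of fast-spiking interneurons, had 6.58, 1.57, 9.74 and 6.88 CPM against 2.48 to 12.4 CPM (-0.19, SE 0.35). The chloride cotransporters Slc12a5 and Slc12a2, which set the direction of GABA signalling, had -0.07 (SE 0.12) and 0.04 (SE 0.08), and the estrogen receptor gene Esr1 had -0.03 (SE 0.19). None of these apart from Notch2 passed the unadjusted threshold. Tcf7l2, a Wnt effector abundant in the developing thalamus, had 470, 41.2, 527 and 519 CPM in CPF3 against 198 to 533 CPM in controls. It was low in 38-5x, as was the thalamic sum.

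Genes of neurogenesis had 3 of 20 members higher (Sox11, Pax6 and Tfap2c) and 0 lower, with a median of 0.08. Pax6, a progenitor factor, had 13.0, 20.1, 18.6 and 11.1 CPM against 8.55 to 17.8 CPM (0.39, SE 0.16), and without 38-5x none of the list passed. Without 43-3x, 38-5x and CONSC 9-1x, Pax6 stood at -0.05 (unadjusted p = 0.792). Tle4, a corepressor of deep cortical layers, had 104, 153, 126 and 95.6 CPM against 79.3 to 116 CPM (0.35, SE 0.11), and stood at 0.21 (unadjusted p = 0.0658) without 38-5x and at 0.07 (unadjusted p = 0.567) without those 3 pups. In Pax6 and Tle4 too, 38-5x was the highest and 45-6x the lowest of the CPF3 pups, as in the striatal sum, whose part in the result was not tested.

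Among large chromatin regulators, 4 of 19 entries were higher at the unadjusted threshold and 0 lower, and all 19 fold changes were above 0 (median 0.12). Setd1b, a histone H3 methyltransferase, had 68.2, 77.0, 133 and 70.5 CPM in CPF3 and 53.8 to 75.8 CPM in controls (0.42, SE 0.12, unadjusted p = 0.00205). Chd8, a chromatin remodeller, had 110, 120, 146 and 111 CPM against 92.9 to 113 CPM (0.24, SE 0.07). In both genes 43-3x was the highest pup, and without it Setd1b stood at 0.14 (unadjusted p = 0.115) and Chd8 at 0.14 (unadjusted p = 0.0546). Arid1a, a subunit of the BAF remodelling complex, had 218, 233, 237 and 183 CPM against 149 to 218 CPM (0.27, SE 0.09), and the acetyltransferase gene Crebbp was higher by 0.26 (SE 0.09). The 11 genes of DNA methylation had 0 members past the threshold and a median of 0.06. Without 43-3x, 2 entries of the chromatin and DNA methylation list were higher, and without that pup, 38-5x and CONSC 9-1x none were. Among splicing factors 3 of 31 entries were higher (Hnrnpul1, Hnrnpdl and Hnrnpl), in which 43-3x was the highest pup, and without it none was.

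Genes of the respiratory chain had medians of opposite sign by the genome that encodes them. Of 58 nuclear entries 6 were lower and 0 higher, 8 of 58 fold changes were above 0 and the median was -0.09. Cox7c, a small subunit of cytochrome c oxidase, had 91.7, 89.5, 93.5 and 73.9 CPM in CPF3 and 78.8 to 129 CPM in controls (-0.28, SE 0.11), and Ndufs1 of complex I 89.4, 74.3, 66.1 and 95.1 CPM against 83.0 to 121 CPM (-0.25, SE 0.09). Ndufs1 stood at -0.16 (unadjusted p = 0.0925) without 43-3x. Cox7c stood at -0.17 (unadjusted p = 0.137 in edgeR) with CONF controls alone. It stood at -0.43 with the controls whose titles hold the character _ and at -0.10 (unadjusted p = 0.305 in edgeR) with those that lack it. Of 13 mitochondrially encoded entries 2 were higher, ND2 (0.24, SE 0.11) and ATP6 (0.21, SE 0.10), with a median of 0.14. Without 43-3x, ND2 stood at 0.13 (unadjusted p = 0.280) and ATP6 at 0.17 (unadjusted p = 0.149), and the count of mitochondrially encoded entries that were higher ranged from 0 to 4 with 1 pup left out. The count of nuclear entries that were lower ranged from 2 to 13 with 1 pup left out, being 2 without 45-6x, 10 without 43-3x and 13 without CONF N8-1x. It was 1 with CONF controls alone and 19 with CONSC controls alone, and it was 20 and 1 with the controls whose titles hold or lack the character _. The choice of controls thus moved this count more than any single pup did.

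Genes of protein folding in the endoplasmic reticulum were lower in part. Of 13 tested, 4 were lower (Hspa5, Hsp90b1, Pdia4 and Pdia6), 0 were higher and the median was -0.12. Both of the first 2 are textbook targets of the unfolded protein response, which acts through the ER stress response element (ERSE) of their promoters, and these promoters are shown because the 2 genes had lower values in the same pups. The ERSE was searched as CCAAT, any 9 bases and CCACG on both strands, in the 250 bases before and 50 after the start site that RefSeq gives in GRCr8. It occurred in 21 of 27457 promoters (0.0765%), once in that of Hspa5 and at 2 places in that of Hsp90b1, and not in that of Pdia4. The promoter of Pdia6 was not searched. A match is a string of letters and not a measured site. The end of this motif can overlap an E-box, described below. The capitals mark the 5 letters at each end of a match, the second match of Hsp90b1 lying on the other strand. The stretches are chr3:38452936-38453015 on the plus strand and chr7:23012338-23012478 on the minus strand, both upstream of the start site.
Hspa5: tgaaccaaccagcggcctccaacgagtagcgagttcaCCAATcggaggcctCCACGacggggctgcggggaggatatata
Hsp90b1: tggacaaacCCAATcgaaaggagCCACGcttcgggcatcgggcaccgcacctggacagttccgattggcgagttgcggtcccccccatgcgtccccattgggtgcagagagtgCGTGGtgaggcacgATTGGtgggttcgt

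Hspa5, the chaperone BiP, had 312, 288, 213 and 234 CPM in CPF3 and 257 to 404 CPM in controls (median 318). Pups 43-3x and 45-6x lay below all controls, and the log2 fold change was -0.30 (SE 0.12, unadjusted p = 0.0203). Hsp90b1, the chaperone GRP94, had 349, 311, 255 and 267 CPM against 269 to 394 CPM (-0.21, SE 0.09, unadjusted p = 0.0336), with the same 2 pups below the controls. The disulphide isomerases Pdia6 and Pdia4 had 113 and 29.3 CPM in 43-3x, against at least 135 and 43.4 CPM in controls, and log2 fold changes of -0.25 and -0.29. Without 43-3x no member of the 23 heat shock and folding genes passed the threshold, and Hspa5 stood at -0.22 (unadjusted p = 0.112).

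The enzymes of cholesterol synthesis, which also supply myelin, gave 4 of 18 genes lower (Msmo1, Ebp, Pmvk and Nsdhl), 0 higher, 1 of 18 fold changes above 0 and a median of -0.11. Msmo1 had 122, 109, 73.6 and 135 CPM in CPF3 and 119 to 155 CPM in controls (-0.26, SE 0.10). The low value of 43-3x recurred in the list as a whole, whose level was 0.02, -0.16, -0.42 and 0.12 in the 4 pups, and without 43-3x none of the list passed. The 13 myelin genes had 1 lower, Mog, and a median of -0.25, and Mbp, the major protein of compact myelin, had 109, 174, 80.4 and 130 CPM against 106 to 194 CPM (-0.32, SE 0.19, unadjusted p = 0.0951). Without 43-3x, Mog stood at -0.36 (unadjusted p = 0.158). Of the 22 entries of the oligodendrocyte lineage, 0 were lower without 43-3x and 8 without 38-5x, and the median ranged from -0.27 to -0.04 with 1 pup left out. The level of the oligodendrocyte lineage was -0.16, 0.21, -0.56 and -0.12, lowest again in 43-3x.

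The differences in the listed circadian clock genes that passed were carried by 1 pup. Csnk1e, a clock kinase gene outside the list, was higher by 0.26 (SE 0.07) on the log2 scale. Without 43-3x, Csnk1e was higher by 0.19 (unadjusted p = 0.0163 in edgeR). Ciart, a repressor of the clock, had 6.35, 7.58, 27.0 and 10.8 CPM in CPF3 and 6.27 to 8.83 CPM in controls. Per2, a core repressor, had 25.5, 23.7, 44.1 and 25.7 CPM against 18.5 to 36.9 CPM. In both genes 43-3x, the pup dissected earliest, was far above the other CPF3 pups. The log2 fold changes were 0.81 (SE 0.22, unadjusted p = 0.00137) for Ciart and 0.36 (SE 0.15, unadjusted p = 0.0252) for Per2, and without 43-3x they were 0.18 (unadjusted p = 0.245) and 0.11 (unadjusted p = 0.454). Nr1d1, another repressor of the clock, had 26.0, 29.0, 67.5 and 38.4 CPM against 21.6 to 46.6 CPM, whereas Arntl, of the positive limb, had 41.1 to 44.4 CPM in CPF3 and 37.5 to 47.8 CPM in controls. Of the 18 listed clock genes 2 were higher and 0 lower, with a median of 0.14, and without 43-3x none of them passed and the median was 0.02. With only the controls dissected in the hours of the CPF3 pups, the log2 fold changes were 0.78 (unadjusted p = 0.0137) for Ciart and 0.44 (unadjusted p = 0.00688) for Per2, although 43-3x was dissected before every control.

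The promoter of Ciart is shown because the clock's activators bind the E-box, searched as CACGTG, which reads the same on both strands. It occurred in 1826 of the 27457 promoters (6.65%), at 3 places in that of Ciart and not in that of Per2, where the absence of these letters says nothing of the factor. The stretch is chr2:186112247-186112356 on the minus strand of GRCr8, from RefSeq, upstream of the start site, with the E-boxes in capitals.
Ciart: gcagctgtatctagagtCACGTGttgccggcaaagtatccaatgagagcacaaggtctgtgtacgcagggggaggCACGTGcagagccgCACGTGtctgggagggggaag

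Further genes set 43-3x apart and were chosen after their values were seen. Txnip, an inhibitor of thioredoxin, had 231 CPM in 43-3x against 48.9 to 104 CPM in controls. The metallothionein gene Mt2A had 35.1 CPM against 8.00 to 16.9 CPM. Kctd21 and Zfp113 were nearly missing in this pup, with 1.06 and 1.15 CPM against at least 8.74 and 6.66 CPM in controls. The glucocorticoid list, which includes the induced genes Fkbp5 (0.01, SE 0.09) and Sgk1 (-0.01, SE 0.12), had 0 of 19 genes past the threshold in the comparison of the groups. With 1 pup left out, 0 to 3 of its members were higher and 0 to 1 lower. The level of this list was 0.09 in 43-3x, the highest of the CPF3 pups, and -0.08 to 0.11 in controls.

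Markers of microglia and endothelium were lower in part. Of 15 microglial genes 4 were lower, among them Gpr34, Aif1 and P2ry12, 0 were higher, 3 of 15 fold changes were above 0 and the median was -0.16. P2ry12, the purinergic receptor of resting microglia, had 8.54, 7.39, 6.80 and 8.99 CPM in CPF3 and 7.64 to 12.1 CPM in controls (-0.30, SE 0.14). The summed level of the list was 152, 166, 175 and 182 CPM against 163 to 223 CPM, so that only 35-3x lay below the controls, and none of the genes passed without 43-3x, although the median then was -0.18. Of 14 endothelial genes 2 were lower, Esam and Cldn5. Cldn5, the tight junction protein of brain vessels, had 52.3, 53.0, 51.1 and 55.0 CPM against 55.7 to 76.8 CPM (-0.26, SE 0.11), below all controls in all 4 pups, while the sum of the endothelial and pericyte list overlapped, at 391 to 437 CPM in CPF3 and 427 to 490 CPM in controls. The 17 astrocyte and 8 interneuron entries had none past the threshold. The same held for the striatal, thalamic and choroid plexus lists, whose medians were 0.13, 0.04 and 0.06.

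Among synaptic genes, few passed the unadjusted threshold. None of 24 genes of vesicle release, 16 of the postsynaptic scaffold, 23 sodium and potassium channels or 11 serotonin receptors did, the last with a median of -0.14, which does not show that the levels were alike. Of 12 GABA-A receptor subunits 2 were lower and 0 higher (median -0.12). Gabra4, the subunit of extrasynaptic receptors, had 63.9, 51.2, 61.0 and 79.2 CPM in CPF3 and 70.1 to 86.7 CPM in controls (-0.25, SE 0.10, unadjusted p = 0.0170), and Gabrb1 5.02, 4.77, 4.78 and 6.04 CPM against 5.15 to 7.73 CPM (-0.30, SE 0.13). In both genes the pups other than 45-6x lay below all controls, and without 38-5x Gabra4 stood at -0.16 (unadjusted p = 0.125). Without 43-3x the unadjusted p was 0.0506 for Gabra4 and 0.0951 for Gabrb1, and the number of GABA and chloride genes that were lower ranged from 0 to 5 with 1 pup left out. The kainate receptor subunit Grik5 was higher by 0.18 (SE 0.07) and the postsynaptic adhesion protein Nlgn2 of inhibitory synapses by 0.15 (SE 0.07). Of 31 immediate early genes, 2 were higher, Fosl2 (0.54, SE 0.24) and Dusp1 (0.16, SE 0.08), whereas Fos itself had 2.51 to 3.59 CPM in CPF3 and 1.84 to 8.03 CPM in controls (-0.42, SE 0.26). With 1 pup left out, Fosl2 passed in 8 and Dusp1 in 6 of 14 fits, and 0 to 3 members of the list were higher.

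**Figure D4:**
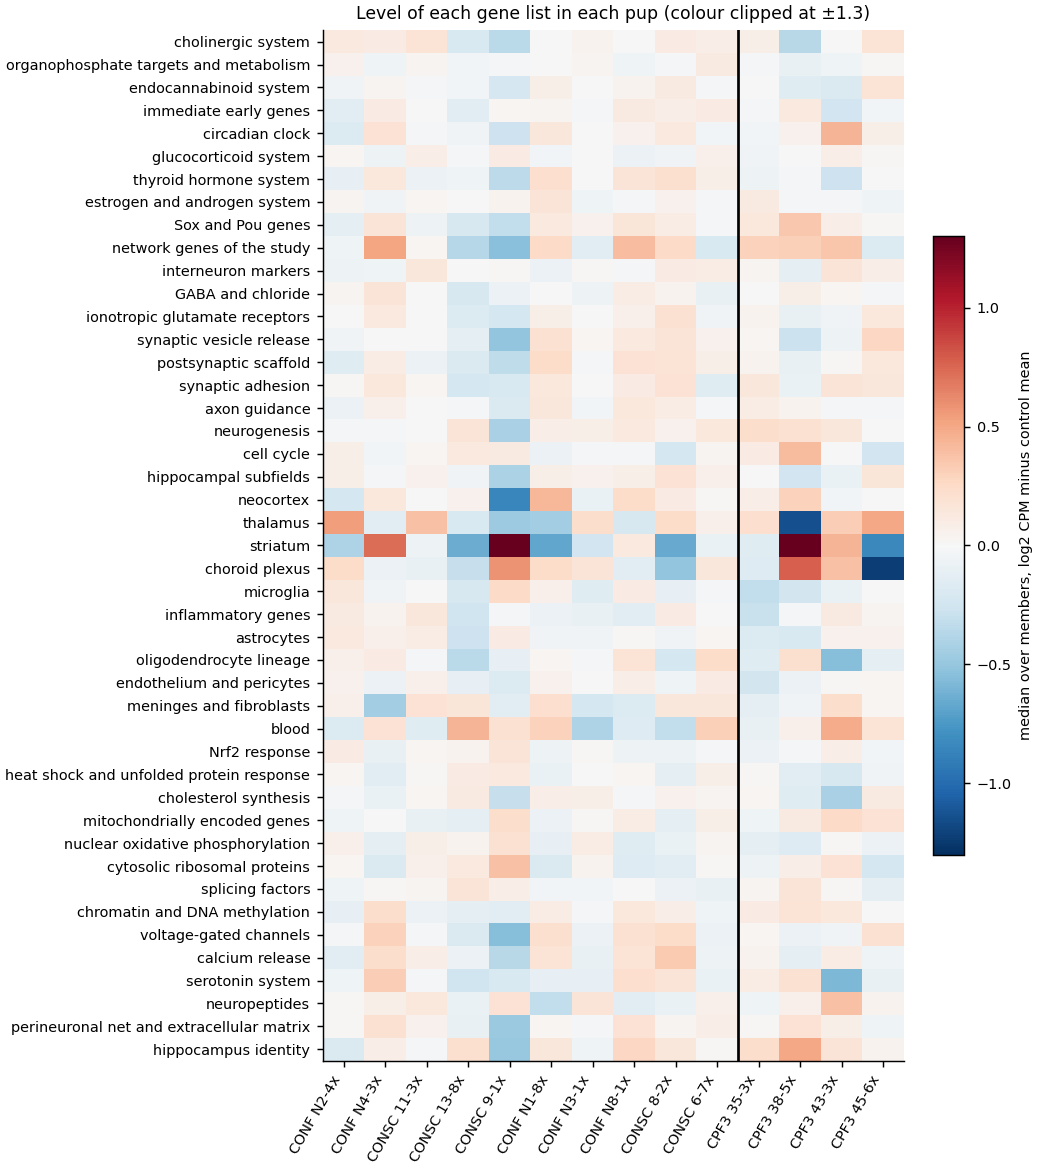
Level of each of the 45 gene lists (rows) in each of 10 control and 4 CPF3 females (columns, CPF3 right of the line), as the median over the members of log2 CPM minus the control mean, with colours from -1.3 (blue) to 1.3 (red). The strongest colours in CPF3 are in the striatal, thalamic and choroid plexus lists of 38-5x (1.32, -1.14 and 0.77) and in the striatal and choroid plexus lists of 45-6x (-0.84 and -1.23). Among controls they are in CONSC 9-1x.

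Whether the females differed from males exposed to the same dose was tested as an interaction of sex and treatment, in 1 fit over 52 pups that included 7 CPF3 males and 9 control males. Of 17282 genes, 8 (0.0463%) had an adjusted p under 0.05. Among them was Hnrnph3, an RNA-binding protein gene, with a log2 fold change of -0.16 (SE 0.12) in females and 0.69 (SE 0.10) in males. The others were pseudogenes or LOC entries. Of the genes named above, Hjurp had a log2 fold change of 0.50 in females and 0.01 in males (interaction unadjusted p = 8.27e-04, adjusted p = 0.365 in edgeR). Sox11 had 0.41 in females and 0.68 in males, Pou2f2 0.18 and 0.66, and Pou3f2 0.04 and 0.67, with no interaction at an adjusted p under 0.05. The sexes were therefore not shown to differ in these genes. The 9 control males have libraries titled with a final Y and the 7 CPF3 males with a final y, so that dose and form of title cannot be told apart in males. Control male CONF N2-2y has a library of each form, and these were summed in the fit. Its libraries titled Y and y had 3.83 and 6.49 CPM of Hnrnph3, against 3.37 to 4.71 CPM in the other control males and 5.97 to 8.90 CPM in CPF3 males. For Pou2f2 they had 2.83 and 6.26 CPM, against 2.30 to 5.38 CPM in the other control males. For Pou3f2 they had 5.71 and 8.18 CPM, and for Sox11 12.7 and 16.6 CPM. These values lay within those of the other control males, 4.24 to 10.2 CPM for Pou3f2 and 6.83 to 19.4 CPM for Sox11. For Pvalb the libraries titled Y and y had 4.01 and 3.84 CPM, against 4.80 to 16.1 CPM. The part of the title form in these genes was not tested. With the library titled y as the only control male, an alternative chosen after seeing the data, no gene (0) passed after adjustment in edgeR, and 456 passed at the unadjusted threshold. Of the 8 genes, 2 (Ybx1-ps4 and LOC100360758) had too few counts to be tested in that fit, and the interaction (female minus male log2 fold change) was -0.23 (unadjusted p = 0.373) for Hnrnph3, -4.13 (unadjusted p = 0.00417) for Gapdh-ps2 and -2.49 (unadjusted p = 0.0132) for LOC100360781. That lone library is then assumed to vary like the other groups.

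**Figure D5:**
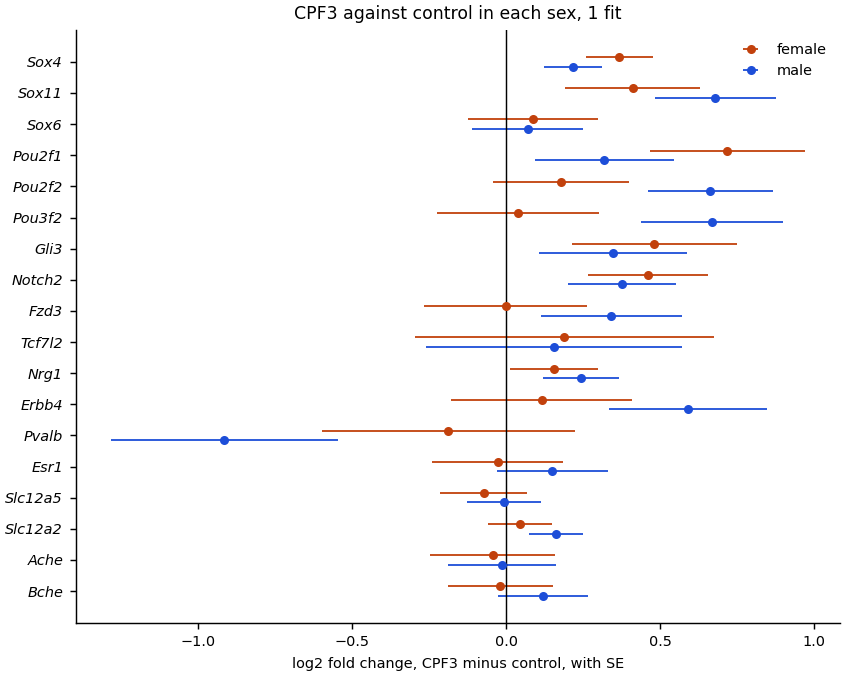
Log2 fold change of CPF3 against controls with its SE (x axis) in females (orange) and males (blue), from 1 fit, for 18 genes (rows) of the transcription factor network, interneurons, chloride transport and cholinesterases. Female and male values lie farthest apart for Pvalb (-0.19 and -0.91) and Pou3f2 (0.04 and 0.67), and none of the differences had an adjusted p under 0.05.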

How the data were processed

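The authors sequenced poly-A selected, stranded libraries, aligned the reads to rat build Rnor_6.0 with STAR and deposited raw counts per gene from featureCounts; kallisto is also listed in the submitters' processing notes. Versions, strand setting and treatment of multiply matching reads are not given in the sources used here, so that values of paralogs and overlapping genes are uncertain. The deposited counts cover 37777 entries, of which 865 share a symbol with another. The 2 libraries of CONF N4-3x were summed (median chi-square per gene 1.09, against 1.53 or more for other pairs of libraries), as were, for the interaction, those of control male CONF N2-2y by its pup name, which differed as much (7.11) as pairs of different CONF males did (2.08 to 9.20). The labels of the 2 libraries of CONF N4-3x give different dissection times, of which the later, 12.09 h, was kept. The 12 files of low-dose males were not used.

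From the counts, edgeR 4.0.16 (limma 3.58.1, DESeq2 1.42.0, R 4.3.3) was fitted to all 23 female pups with filterByExpr, TMM normalization and quasi-likelihood F tests, adjusted by Benjamini-Hochberg over the genes tested. CONF and CONSC were combined, as in the study. SE is the size of the log2 fold change divided by the square root of F, and intervals are at 95%. CPM of single genes used TMM-scaled library sizes, and sums over a list used the library totals without scaling. A gene counts as higher or lower in a list at an unadjusted p under 0.05. Litter mates of opposite sex correlated by -0.375 to 0.365 in 20 pairs. The scripts were tested on simulated data.

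The members and the 45 gene lists were chosen with earlier results of these data known. Genes named are the 12 with the smallest p in each direction having at least 10 counts in each of the 14 pups (without LOC, RGD and pseudogene symbols), up to 2 members per list and direction at p under 0.05, genes with an adjusted p under 0.05, and the study's network and cholinesterase genes. Some genes that met this rule are not reported here. Other genes were named to describe a list or a pup after their values were seen.

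Alternatives were DESeq2 and its size factors in edgeR, limma-voom with quality weights, robust dispersions, other filters, fewer groups or controls, a time window, the libraries of N4-3x apart, thinning to the lowest total, each pup left out, and for the interaction the litter as a replicate block. Promoters came from RefSeq, assembly GRCr8. The labels call the control injection saline and the study's methods dimethyl sulfoxide.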

Additional observations from a re-analysis of the deposited data

Results flagged for a closer look

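In 27 of 266 groups of values, 1 pup stood apart from its group by Dixon's 95% criterion, where chance alone gives about 1 in 20 groups. CONSC 9-1x stood apart from the other controls in the levels of the neocortex (-0.84), synaptic vesicle release (-0.52), perineuronal net and extracellular matrix (-0.48), neurogenesis (-0.42), hippocampal subfields (-0.41), cholesterol synthesis (-0.30) and endocannabinoid (-0.21) lists, given as median log2 CPM minus the control mean. It also stood apart in Mrps16 (30.1 CPM) and LOC102550394 (5.81 CPM). CPF3 43-3x stood apart in the clock gene Per2 (44.1 CPM), Setd1b (133 CPM), Dhx37 (62.1 CPM), Tmem39b (33.9 CPM) and Star (2.71 CPM), which encodes the steroidogenic acute regulatory protein.

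CPF3 38-5x stood apart from the other CPF3 pups in Tcf7l2 (41.2 CPM), Txn1 (86.9 CPM), Hnrnph3 (6.67 CPM) and the synaptic adhesion list (-0.085). CPF3 45-6x did so in Erbb4 (4.77 CPM) and the list of the study's network genes (-0.18). Among the remaining controls, CONSC 13-8x stood apart in Slco1c1 (100.5 CPM) and the astrocyte list (-0.27), CONSC 6-7x in Zswim4 (35.8 CPM) and Cyp2d4 (8.51 CPM), CONF N2-4x in Pax6 (17.8 CPM), CONF N4-3x in Per2 (36.9 CPM) and CONF N1-8x in the estrogen and androgen list (0.17).

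In 8 genes the difference between CPF3 and control pups was not the same in both sexes by the interaction test, in which dose and form of title cannot be told apart in males. The interaction, female minus male log2 fold change, was 4.75 for Ybx1-ps4, 4.25 for LOC100360758, -0.85 for Hnrnph3, -3.13 for LOC100360781, -2.23 for LOC102548588, -1.51 for LOC102551813, 1.26 for LOC102550394 and -3.59 for Gapdh-ps2. For Ybx1-ps4, the counts were 0 to 16 per female pup, 1 to 3 in CPF3 males and 16 to 36 in control males, so that the value rests on few reads that may belong to other copies. The libraries of control male CONF N2-2y titled Y and y had 21 and 4. Hnrnph3 had 65 counts or more in every CPF3 female.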

How the results depend on the processing

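No alternative turned the sign of any of the 24 genes with the smallest p (744 values). These genes were picked by their p in the same pups, so that a kept sign is no independent check. Of genes named by other rules, Notch2, Pax6, Pou2f1, Hnrnpdl (-0.03) and Star (-0.20) turned without 43-3x, 38-5x and CONSC 9-1x. Of the 24, 12 had an unadjusted p under 0.05 in each of 31 alternatives. The number of genes at an adjusted p under 0.05 was 0 in the main comparison, 3 with DESeq2 (Hjurp, Cacng4 and LOC103693687), 110 with only the controls whose titles hold the character _ as those of CPF3 do, and 0 to 1 with 1 pup left out (Hjurp without 45-6x, adjusted p = 0.0295 in edgeR). The number at an unadjusted p under 0.05, 1493, was 746 with limma-voom quality weights, 2332 with those controls, 520 with only pups inside the study's time window, which of the 14 leaves out 43-3x, and 571 to 2328 with 1 pup left out (571 without 43-3x, 2328 without 45-6x). Chosen after seeing the data, the fit without 43-3x and CONSC 9-1x gave 582 and that without 38-5x as well gave 602. The cause was not tested.

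For the interaction of sex and treatment, 8 genes passed. The count was 7 with the litter as a replicate block and 7 without it in limma-voom, 16 with DESeq2, 2 with CPF3 and control pups only, 1 in the time window, 0 with the library titled y as the only control male (chosen after seeing the data) and 3 to 7 with 1 CPF3 pup left out. Depth limits genes with few counts in the shallowest library, with 12679856 counts in all.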

Other observations

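Gene groups not described above are given here by their counts. Cytosolic ribosomal proteins had 2 of 71 entries higher at an unadjusted p under 0.05, among them Rpl6 (log2 fold change 0.20, SE 0.08), 0 lower and a median of 0.01. With 1 pup left out, 0 to 7 entries were higher and 0 to 2 lower. Rpl6 stood at 0.14 (unadjusted p = 0.103 in edgeR) without 43-3x. Of 17 targets of the antioxidant factor Nrf2, Hmox1, the heme oxygenase, was higher (0.24, SE 0.11) and Txn1, thioredoxin, lower (-0.28, SE 0.10), and without 43-3x Hmox1 stood at 0.11 (unadjusted p = 0.327). Txn1 stood at -0.19 (unadjusted p = 0.104 in edgeR) with CONF controls alone. It stood at -0.40 with the controls whose titles hold the character _ and at -0.10 (unadjusted p = 0.275 in edgeR) with those that lack it. Of 30 axon guidance genes, the ephrin Efnb1 was higher (0.24, SE 0.09) and Slit2 lower (-0.22, SE 0.10), and without 38-5x Efnb1 stood at 0.15 (unadjusted p = 0.129). Of 17 thyroid hormone genes 2 were lower, the thyroxine transporter Slco1c1 (-0.29, SE 0.10) and the activating deiodinase Dio2 (-0.62, SE 0.29), both lowest in 43-3x and at -0.15 and -0.41 without it. Among neuropeptide precursors 1 of 16 was higher, Gal (0.50, SE 0.21), at 0.94 to 2.89 CPM in CPF3. With 1 pup left out, Gal passed in 11 of 14 fits, and without 43-3x it stood at 0.36 (unadjusted p = 0.121 in edgeR). Of 8 genes of estrogen and androgen action, Star was higher (0.61, SE 0.27) and Hsd17b4 lower (-0.28, SE 0.10), and without 43-3x Star stood at -0.09 and Hsd17b4 at -0.14 (unadjusted p = 0.0795). In the hippocampal subfields 1 of 26 genes was lower, Rgs14, a marker of CA2, with 4.86, 4.51, 5.14 and 8.00 CPM in CPF3 against 4.80 to 13.7 CPM in controls (-0.58, SE 0.22). None of 12 inflammatory genes passed in either direction. The meningeal, red cell, perineuronal net and calcium release lists had none past the threshold either.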
